A study of Mus musculus with 6 samples.

Results

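The genes described here encode the phagocyte NADPH oxidase and the proton channel that works beside it. They are Cybb, Cyba, Ncf1, Ncf4, Rac2 and Hvcn1, chosen by name, 6 of the 16516 genes measured by RNA-seq. The RNA came from CD11b+ cells that were isolated with magnetic beads from the cortex of male wild-type C57BL6/J mice aged 8 to 10 weeks. 4LPS mice received LPS from Escherichia coli 055:B5 at 500 µg/kg by intraperitoneal injection on 4 consecutive days, NS mice received an equal volume of normal saline, and cells were collected on day 7. Each group had 3 samples, each a pool of cells from 2 mice. CD11b is also carried by neutrophils, monocytes, other macrophages and natural killer (NK) cells, so the beads retain these along with microglia. In such bulk samples a change in the number of cells of a type and a change in RNA per cell cannot be told apart.

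The NADPH oxidase of phagocytes moves electrons from NADPH in the cytosol across a membrane to oxygen and so makes superoxide, which serves in the killing of ingested microbes and in redox signalling. Cybb encodes the catalytic chain and Cyba the smaller chain that stabilises it, and together they form the membrane-bound flavocytochrome. Ncf1 is the organizer and Ncf4 the phosphoinositide-binding subunit of a cytosolic complex that joins the flavocytochrome on stimulation, together with a Rac GTPase, of which Rac2 is the form typical of blood cells. Hvcn1 is a voltage-gated proton channel that lets protons follow the electrons, which keeps charge and pH balanced. In the brain this oxidase is best known from microglia.

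The promoters of Cybb, Cyba and Ncf1 are shown because RefSeq promoter entries were matched for only these 3 of the 6 members. Ncf4, Rac2 and Hvcn1 are named only. Each runs from 250 bases before to 50 bases from the transcription start, on build GRCm38.p6, and is written 5′ to 3′ along the gene, which is the minus strand in all 3 cases. The positions are chrX:9469275-9469574 for Cybb, chr8:122432891-122433190 for Cyba and chr5:134229576-134229875 for Ncf1. Capitals mark matches on either strand to 4 letter patterns: GAGGAA (core bound by PU.1), GAAANNGAAA (paired interferon response element), TGANTCA (AP-1 site) and GGGANNTTCC (NF-kB-like site).
Cybb: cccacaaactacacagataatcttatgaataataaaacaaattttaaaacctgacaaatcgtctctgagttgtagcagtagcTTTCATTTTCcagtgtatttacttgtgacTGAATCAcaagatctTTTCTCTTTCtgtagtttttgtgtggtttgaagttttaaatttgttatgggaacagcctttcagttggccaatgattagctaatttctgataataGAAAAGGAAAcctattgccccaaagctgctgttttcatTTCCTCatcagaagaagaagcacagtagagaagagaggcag
Cyba: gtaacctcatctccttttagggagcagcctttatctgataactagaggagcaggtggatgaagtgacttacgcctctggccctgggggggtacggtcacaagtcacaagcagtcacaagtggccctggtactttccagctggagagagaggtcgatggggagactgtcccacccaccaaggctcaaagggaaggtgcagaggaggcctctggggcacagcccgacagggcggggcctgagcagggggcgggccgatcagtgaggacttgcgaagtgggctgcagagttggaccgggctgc
Ncf1: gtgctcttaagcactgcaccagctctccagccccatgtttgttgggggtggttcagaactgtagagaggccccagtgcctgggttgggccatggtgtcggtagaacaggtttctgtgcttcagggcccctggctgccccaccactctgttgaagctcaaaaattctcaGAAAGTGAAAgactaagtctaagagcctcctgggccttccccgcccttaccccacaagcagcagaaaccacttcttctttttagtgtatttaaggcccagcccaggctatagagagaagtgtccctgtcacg
The Cybb promoter held 3 matches to the paired interferon response element, which began 168, 124 and 29 bases before the start. It also held an AP-1 match that began 139 bases before the start and a PU.1 core 9 bases past it. The Ncf1 promoter held 1 paired interferon response element, which began 82 bases before the start. The Cyba promoter matched none of the 4 patterns. Of all 32851 promoters of this length in the table, 3.44% held the interferon pair, 7.81% the AP-1 pattern, 28.3% the PU.1 core and 1.47% the NF-kB-like pattern. A match describes letters in this window and is no evidence of binding, and its relation to the size of the changes was not tested.

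Levels are given in 2 scales. FPKM, as deposited, is scaled for gene length and library total, and was used to compare genes with each other. CPM is the estimated count scaled to a common library total after TMM composition factors, and was used to compare groups, with edgeR's quasi-likelihood test and Benjamini-Hochberg adjustment over 13151 genes tested. Fold changes are 4LPS over NS on the log2 scale. A gene rose or fell where its adjusted p was under 0.05. Total counts were 15164123 to 15462396 in 4LPS samples and 15158342 to 15746606 in NS samples, so depth was nearly equal. The label of microglia was checked against 12 markers, all of which were detected. Their summed level was 37639 to 38551 CPM in 4LPS samples and 40828 to 43249 CPM in NS samples. Of these markers 0 were higher and 3 lower, beside 9.95% of all genes tested that rose and 6.43% that fell. The sample in which Cybb was highest among the NS samples, NS replicate 3, also stood apart in neutrophil markers, which are given with the results.

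Per length, Cyba was the most abundant member and Cybb the least abundant in every sample of both groups. In 4LPS samples the mean FPKM was 585 ± 62.3 for Cyba, 261 ± 11.4 for Ncf1, 155 ± 7.98 for Hvcn1, 65.5 ± 6.32 for Rac2, 54.8 ± 6.04 for Ncf4 and 25.1 ± 3.93 for Cybb (SD, n = 3). In NS samples it was 450 ± 24.9 for Cyba, 245 ± 7.76 for Ncf1, 122 ± 0.70 for Hvcn1, 49.9 ± 1.15 for Rac2, 50.7 ± 2.67 for Ncf4 and 10.9 ± 4.32 for Cybb (SD, n = 3). The order of the members was thus the same in both groups except for Rac2 and Ncf4. Their FPKM ranges overlapped within each group, 58.93 to 71.54 for Rac2 and 48.37 to 60.34 for Ncf4 in 4LPS samples, and 48.71 to 51 and 47.85 to 53.15 in NS samples. No other neighbours in the order overlapped. Among all 16516 genes ranked by mean FPKM, Cyba stood at 130 in 4LPS and at 130 in NS, and Cybb at 3203.5 in 4LPS and at 6280 in NS.

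**Figure D1:**
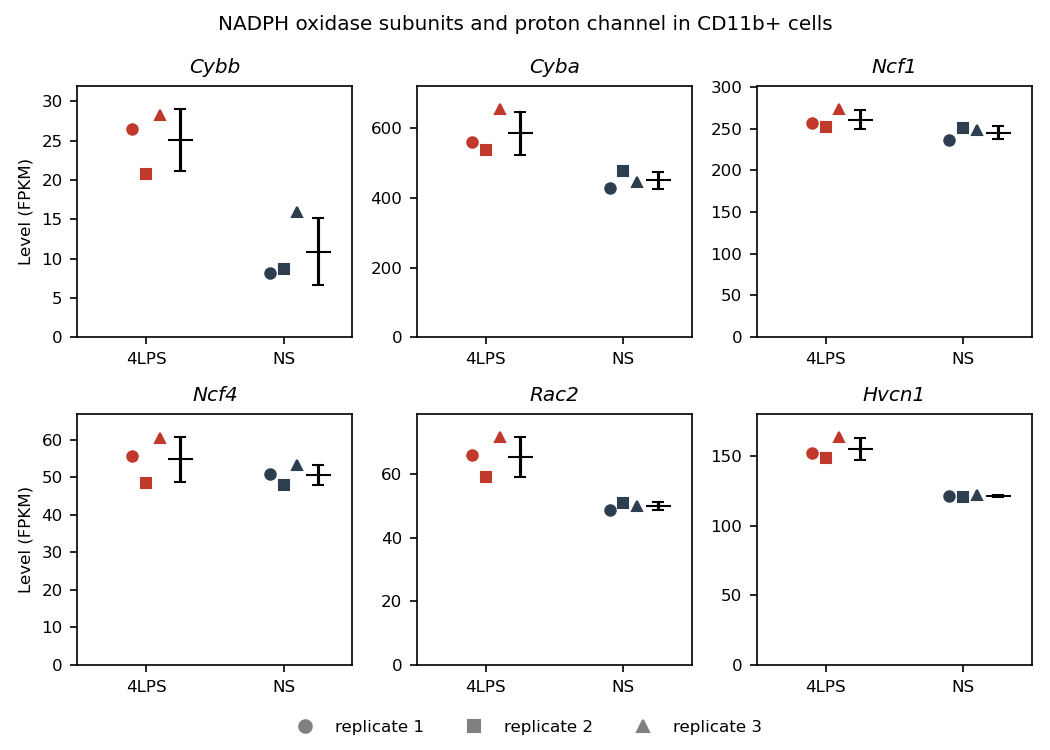
FPKM of each member by sample, with 3 4LPS samples on the left and 3 NS samples on the right of each panel and the mean with its SD beside the points. The panels have separate vertical axes that start at 0. For Cybb, Cyba, Rac2, Hvcn1 and Ncf1 every 4LPS sample lay above every NS sample, and for Ncf4 the groups overlapped.

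The membrane chains both rose, with the larger change in the catalytic chain. Cybb had 121, 95.5 and 132 CPM in 4LPS replicates 1 to 3, against 34.6, 37.8 and 69.1 CPM in NS replicates 1 to 3. All 4LPS samples lay above all NS samples, and NS replicate 3 was the highest of the NS samples. The difference was 1.30 on the log2 scale (SE 0.25, 95% interval 0.71 to 1.89), a 2.46-fold higher level, with an adjusted p of 0.0131 from edgeR. Leaving out NS replicate 3 gave 1.68, and leaving out NS replicate 1 gave 1.12, the lowest value of any sample left out. Cybb lies at chrX:9301491-9354010 on the minus strand of GRCm39 and has 13 exons in the GENCODE annotation. Of its 5815 exonic bases, 304 are shared with Xk, whose count over all 6 samples was 635.

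Cyba had 273, 269 and 315 CPM in 4LPS samples, against 196, 223 and 204 CPM in NS samples. The groups did not overlap, and the gap between them was wider than the spread of the NS samples. The difference was 0.46 on the log2 scale (SE 0.076, 95% interval 0.28 to 0.64), with an adjusted p of 0.00652 from edgeR, a 1.38-fold higher level. Cyba lies at chr8:123150422-123159706 on the minus strand of GRCm39. It shares 423 of 2305 exonic bases with Il17c, which had a single count in all samples together.

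Neither cytosolic subunit among the members passed the test. Ncf1 had 643, 637 and 696 CPM in 4LPS samples, against 551, 597 and 591 CPM in NS samples, so the groups did not overlap. The difference was 0.18 (SE 0.058, 95% interval 0.05 to 0.32) with an adjusted p of 0.0674 from edgeR, and DESeq2 on the same counts gave 0.19 with an adjusted p of 0.00839. The Ncf1 locus is at chr5:134248907-134258479 on the minus strand, and 574 of 3663 exonic bases are shared with Gtf2ird2, which had 2659 counts in all.

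Ncf4 had 66.9, 58.8 and 73.0 CPM in 4LPS samples, against 57.2, 54.7 and 60.5 CPM in NS samples. The groups overlapped, since 4LPS replicate 2 lay below NS replicate 3. The difference was 0.20 (SE 0.085, 95% interval 0.01 to 0.40), with an adjusted p of 0.137 from edgeR. Without 4LPS replicate 2 it was 0.30 with an adjusted p of 0.0477. Ncf4 lies at chr15:78128982-78146784 on the plus strand and shares no exonic base with another gene.

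Rac2 had 186, 168 and 205 CPM in 4LPS samples, against 128, 137 and 134 CPM in NS samples. Every 4LPS sample lay above every NS sample. The difference was 0.49 (SE 0.074, 95% interval 0.31 to 0.66), a 1.40-fold higher level, with an adjusted p of 0.0047 from edgeR. Rac1, the widely expressed Rac GTPase of similar sequence, had 521, 538 and 544 CPM in 4LPS samples and 551, 552 and 560 CPM in NS samples. All 3 of its 4LPS samples lay below the NS samples, but the difference of -0.05 did not pass (adjusted p of 0.434 from edgeR). With no composition factor Rac1 was at -0.15 and passed (adjusted p of 0.0393), as it did in the limma fits on FPKM. The difference between the changes of the 2 genes was not tested. RSEM divides reads that match both genes, so part of these counts may be shared. Rac2 lies at chr15:78443367-78457429 on the minus strand.

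Hvcn1 had 386, 379 and 422 CPM in 4LPS samples, against 287, 290 and 293 CPM in NS samples. The NS samples lay close together, with an SD of 3.38 CPM, and all 4LPS samples lay above them. The difference was 0.45 (SE 0.052, 95% interval 0.33 to 0.57), a 1.36-fold higher level, with an adjusted p of 0.00124 from edgeR, the smallest of the members. Hvcn1 lies at chr5:122344867-122382736 on the plus strand. It shares 2609 of 5939 exonic bases with Tctn1, which had 2049 counts in all. Neither the labels nor the methods state whether counting used strand, so where exons overlap on opposite strands the reads of both genes cannot be told apart.

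Of the 6 members, 4 rose, 0 fell and 2 did not pass. In the same fit 9.95% of all genes tested rose and 6.43% fell. In 5 of 6 members every 4LPS sample lay above every NS sample, against 20.0% of all genes tested. The median difference of the members was 0.45, and that of all genes tested was -0.02. Genes of 1 complex are not independent measurements.

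**Figure D2:**
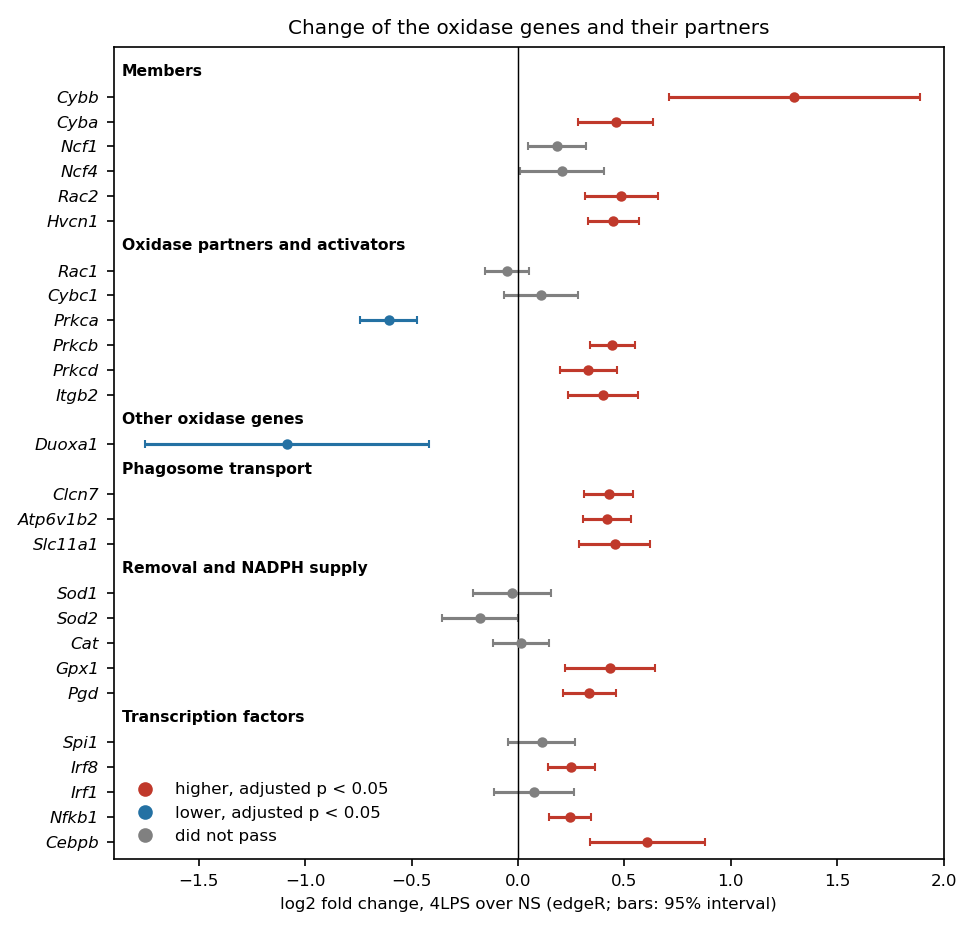
Log2 fold change of 4LPS over NS from edgeR with its 95% interval for the members, the partners of the oxidase and the named genes of the pathway lists. Red points rose, blue points fell and grey points did not pass the test, and Cybb at 1.30 was the furthest right of the members.

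Relative to Cybb, every other member was lower in 4LPS samples. The FPKM ratio of Cyba to Cybb was 21.2, 26.0 and 23.2 in 4LPS samples, against 52.8, 54.9 and 28.0 in NS samples. That of Ncf1 to Cybb was 9.71, 12.2 and 9.71 in 4LPS samples, against 29.2, 28.9 and 15.7 in NS samples. The groups did not overlap in any of the 5 ratios, and NS replicate 3 was nearest to the 4LPS samples each time. The mean log2 differences of the ratios were -0.89 for Cyba, -1.17 for Ncf1, -1.15 for Ncf4, -0.88 for Rac2 and -0.91 for Hvcn1. An exact two-sided permutation test over samples gave p = 0.1 for each, the smallest value that 3 against 3 allows, and 0.1 after adjustment over the 5 ratios. The ratios share Cybb as the divisor, so they are not independent.

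**Figure D3:**
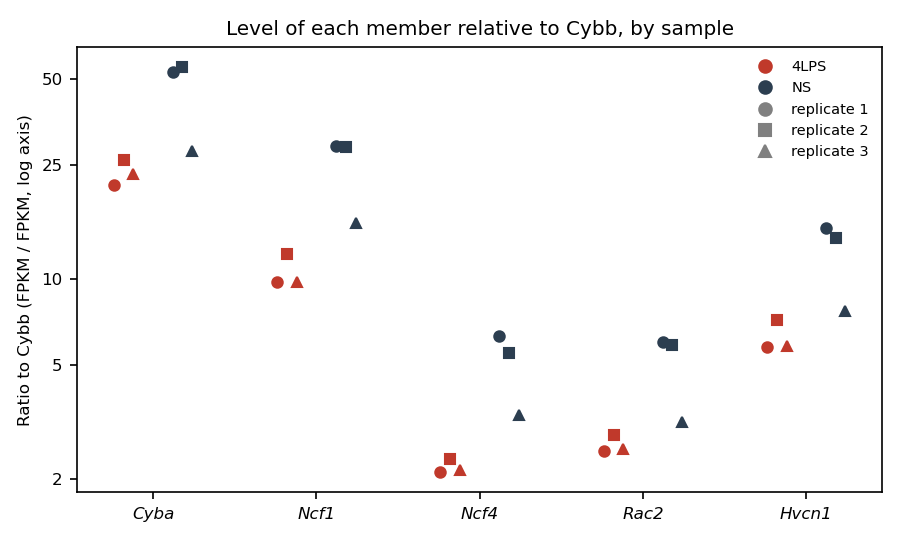
FPKM ratio of Cyba, Ncf1, Ncf4, Rac2 and Hvcn1 to Cybb in each sample on a log axis, 4LPS samples left and NS samples right. For all 5 genes the 4LPS samples lay below the NS samples, with NS replicate 3 closest to them.

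Most genes for proteins that assemble or activate the oxidase did not pass the test. Of 20 listed partners and activators, 5 rose, 1 fell and 14 did not pass, with a median difference of 0.15, beside 9.95% of all genes that rose and 6.43% that fell. Prkcb, a protein kinase C that phosphorylates the organizer subunit, averaged 293 ± 4.91 CPM in 4LPS samples and 215 ± 9.43 CPM in NS samples (SD, n = 3 each), a difference of 0.44 with an adjusted p of 7.24e-04 from edgeR. Prkca, a related kinase, fell to 75.1 ± 4.78 CPM in 4LPS samples, against 114 ± 1.86 CPM in NS samples, a difference of -0.61 (adjusted p of 4.5e-04). The kinase Prkcd rose by 0.33 (adjusted p of 0.00854), and Itgb2, the integrin chain that pairs with CD11b, rose by 0.40 (adjusted p of 0.00913). Plcg2, a phospholipase C, and Dock2, an exchange factor for Rac, had differences of 0.23 (adjusted p of 0.0253) and 0.21 (adjusted p of 0.0352) and were named after their values were seen. Both calls were lost without 4LPS replicates 1 or 2 or NS replicate 1, with adjusted p of 0.0617 to 0.0790 for Plcg2 and 0.0874 to 0.115 for Dock2. Without 4LPS replicate 3 Plcg2 was at 0.0650, and without NS replicate 2 Dock2 was at 0.0643. With no composition factor Plcg2 was at 0.14 (adjusted p of 0.0905) and Dock2 at 0.11 (adjusted p of 0.162), neither passed in the limma fits on FPKM, and Dock2 was lost with the replicate block (adjusted p of 0.0658). Cybc1, a chaperone of the flavocytochrome, had a difference of 0.11 (adjusted p of 0.347).

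Most genes of the other NADPH oxidases that were measured were near the detection limit. Of 9 listed genes 6 were in the table and 2 had enough counts to be tested, of which 0 rose. Over all genes tested 9.95% rose and 6.43% fell. Nox1, Nox3, Nox4 and Duox2 had 5, 1, 4 and 10 counts over all 6 samples. Noxo1 was higher than these, at 8.91 ± 0.13 CPM in 4LPS samples and 8.44 ± 0.29 CPM in NS samples (SD, n = 3 each). Its difference of 0.08 did not pass (adjusted p of 0.649 from edgeR). Duoxa1, a maturation factor of the dual oxidases, had 1.48, 0.883 and 0.949 CPM in 4LPS samples, against 2.14, 2.51 and 2.42 CPM in NS samples. These levels were low in both groups. The difference of -1.09 had an adjusted p of 0.0398 from edgeR, but the call was lost without 4LPS replicate 2 (0.131), 4LPS replicate 3 (0.124), NS replicate 1 (0.0906), NS replicate 2 (0.100) or NS replicate 3 (0.0557). DESeq2 (0.0875) and the replicate block (0.0610) did not call it either.

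Enzymes that remove superoxide and peroxide, and those that supply NADPH, mostly did not pass. Of all genes tested 9.95% rose and 6.43% fell. Of 11 removal genes 1 rose and 0 fell. It was Gpx1, a glutathione peroxidase, with 165, 167 and 192 CPM in 4LPS samples, against 117, 127 and 145 CPM in NS samples, a difference of 0.43 (adjusted p of 0.0177 from edgeR). The Gpx1 call was lost without NS replicate 1 (0.0577) or NS replicate 2 (0.0589), and in limma on FPKM without a filter (0.0652). Sod1 and Sod2, the cytosolic and mitochondrial superoxide dismutases, and Cat, the peroxisomal catalase, had differences of -0.03, -0.18 and 0.01 (adjusted p of 0.835, 0.148 and 0.885). Sod2 passed as lower with no composition factor (-0.28, adjusted p of 0.0438 from edgeR), and the signs of Sod1 and Cat changed among the alternatives. Of 8 NADPH supply genes 1 rose and 0 fell. It was Pgd, of the pentose phosphate pathway, at 209 ± 2.93 CPM in 4LPS samples and 165 ± 10.1 CPM in NS samples (adjusted p of 0.00557 from edgeR). The differences ran from -1.60 to 0.43 on the removal list and from -1.79 to 0.33 on the NADPH supply list.

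Beside the oxidase, transporters of the phagosome and lysosome were examined. Of 9 listed proton and chloride transport genes 8 were tested, 3 rose and 0 fell, with a median difference of 0.15. Among all genes tested 9.95% rose and 6.43% fell. Slc11a1, a metal ion transporter of the phagosome, rose by 0.45 (adjusted p of 0.00538 from edgeR). Clcn7, a lysosomal chloride-proton exchanger, rose by 0.43 (adjusted p of 0.00121), and Atp6v1b2, a subunit of the vacuolar proton pump, rose by 0.42 (adjusted p of 0.00124). The difference of Hvcn1 in the same fit was 0.45.

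Of 10 listed transcription factors known to act on oxidase genes 8 were in the table and tested, 4 rose and 0 fell, and 3 of those that rose are described. The shares of all genes tested that rose and fell were 9.95% and 6.43%. Cebpb, a factor of myeloid cells, had 80.8, 91.6 and 111 CPM in 4LPS samples, against 67.3, 60.8 and 58.1 CPM in NS samples, a difference of 0.61 (adjusted p of 0.0122 from edgeR). Irf8, a partner of PU.1 at myeloid promoters, averaged 584 ± 21.3 CPM in 4LPS samples and 491 ± 4.39 CPM in NS samples (SD, n = 3 each), a difference of 0.25 (adjusted p of 0.0120). Nfkb1, a subunit of NF-kB, rose by 0.24 (adjusted p of 0.00845). Spi1, which encodes PU.1, and Irf1 had differences of 0.11 and 0.07 (adjusted p of 0.283 and 0.554).

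Summed markers of some other cell types were higher in all 4LPS samples, and those of others overlapped between the groups. Over all genes tested 9.95% rose and 6.43% fell, beside which the counts below can be read. The summed level of 13 neutrophil markers was 1383 to 2080 CPM in 4LPS samples and 917 to 1482 CPM in NS samples, and 1 of them rose, Csf3r, a cytokine receptor. Without Csf3r the other 12 summed to 1234, 521 and 812 CPM in 4LPS replicates 1 to 3, against 202, 211 and 785 CPM in NS replicates 1 to 3. In this sum 4LPS replicate 2 was the lowest 4LPS sample and NS replicate 3 the highest NS sample, and the groups overlapped. Cybb was at 95.5 CPM in 4LPS replicate 2 and at 69.1 CPM in NS replicate 3, which were also the lowest 4LPS and the highest NS sample for Cybb. The sum was highest in 4LPS replicate 1, whereas Cybb was highest in 4LPS replicate 3, at 132 against 121 CPM. This pattern was not particular to neutrophil markers. In the sums for NK, T and dendritic cells, monocytes and border-associated macrophages, 4LPS replicate 2 was also the lowest 4LPS sample. NS replicate 3 was the highest NS sample in each of these sums. For every member 4LPS replicate 2 was the lowest 4LPS sample. S100a9, an abundant neutrophil protein, had 337, 137 and 210 CPM in 4LPS samples, against 50.8, 56.7 and 219 CPM in NS samples. NK cell markers summed to 106 to 120 CPM in 4LPS samples and 8.43 to 13.2 CPM in NS samples, and 9 of 10 rose. T cell markers summed to 13.5 to 15.4 CPM in 4LPS samples and 4.09 to 5.70 CPM in NS samples, and all 4 that could be tested rose. The largest part was Cd4, at 8.43, 6.05 and 8.06 CPM in 4LPS samples, against 3.46, 3.58 and 4.27 CPM in NS samples. Cd3d, Cd3e, Cd3g and Cd8b1 had too few counts to be tested, and Trac and Trbc1 were not among the genes measured. Dendritic cell markers summed to 36.9, 30.2 and 40.6 CPM in 4LPS replicates 1 to 3, against 20.6, 16.5 and 29.0 CPM in NS replicates 1 to 3. Of these markers 5 of 7 rose, and their sum was highest in 4LPS replicate 3, as was Cybb. Monocyte markers ranged from 175 to 258 CPM in 4LPS samples and from 136 to 300 CPM in NS samples, with 1 higher of 9 tested, and those of border-associated macrophages from 240 to 541 CPM and from 296 to 433 CPM, with 1 higher of 8. B cell markers summed to 21.8 to 22.1 CPM in 4LPS samples and 14.1 to 19.3 CPM in NS samples, and the only gene with enough counts to be tested, Cd79b, had a difference of 0.39 (adjusted p of 0.0507 from edgeR). No marker in the table was at 0 in all samples.

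An added fit, chosen after seeing the data, took the summed level of the 12 neutrophil markers as a covariate. In it Cybb had a difference of 0.79 (adjusted p of 0.0234 from edgeR) and Hvcn1 0.43 (adjusted p of 0.0219), and both still passed. Cyba at 0.47 and Rac2 at 0.44 no longer did, with adjusted p of 0.0530 and 0.0580. Among the other genes described, Itgb2 at 0.35 (0.0947), Pgd at 0.27 (0.0602), Gpx1 at 0.31 (0.142), Irf8 at 0.25 (0.0894), Nfkb1 at 0.22 (0.0792), Plcg2 at 0.18 (0.180), Dock2 at 0.17 (0.225) and Duoxa1 at -1.29 (0.106) also did not pass, with adjusted p from edgeR in parentheses. Of the genes named below for their profiles, Cd44 at 0.60 (0.114), Xdh at 0.84 (0.0604), Clta at 0.43 (0.0528), Zfp622 at 0.48 (0.0728) and H2aj at 0.51 (0.128) did not pass either. The number of members that rose was then 2 of 6, and all genes that rose numbered 574 of 13151 tested. The differences of Cyba, Rac2 and Hvcn1 moved little, while that of Cybb became smaller. The covariate differs between the groups, which limits how far it can be told apart from treatment. Choroid plexus markers summed to 2240, 1.97 and 539 CPM in 4LPS samples, against 6646, 5767 and 662 CPM in NS samples. With them as a covariate, also chosen after seeing the data, 4 of 6 members rose. All genes that rose in that fit numbered 820 and those that fell 394, of 13151 tested. In the choroid plexus fit the calls of Irf8 (adjusted p of 0.0514 from edgeR), Gpx1 (0.0632), Plcg2 (0.0839), Dock2 (0.105), Duoxa1 (0.160) and Cd44 (0.0611) were lost. The part of NK, T and dendritic cells, monocytes and border-associated macrophages in the members' differences was not tested.

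**Figure D4:**
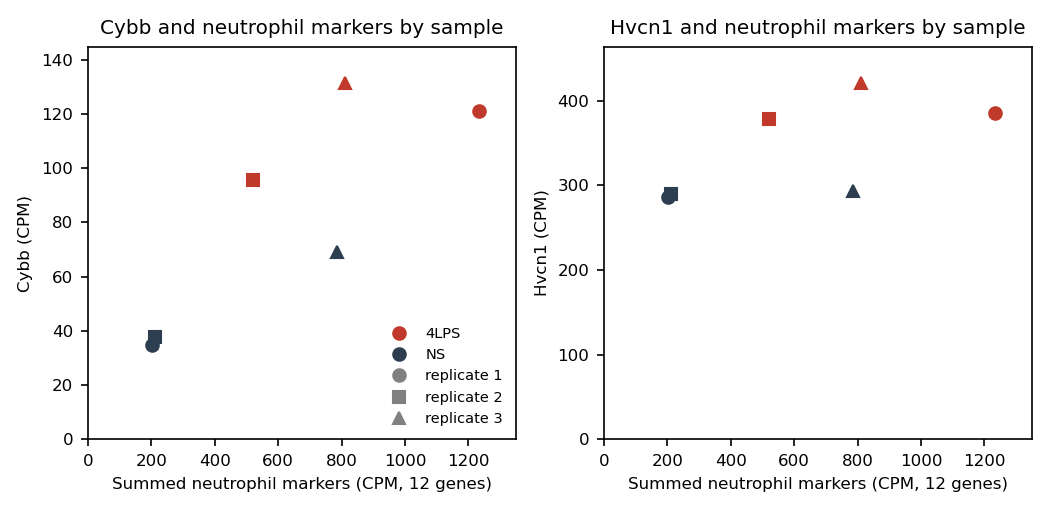
Cybb (left) and Hvcn1 (right) in CPM against the summed CPM of 12 neutrophil markers (Csf3r left out) in each sample, with 4LPS samples in red, NS samples in dark blue and a symbol for each replicate number. 4LPS replicate 2 lay at 521 CPM of markers, 95.5 CPM of Cybb and 379 CPM of Hvcn1, and NS replicate 3 at 785 CPM of markers, 69.1 CPM of Cybb and 293 CPM of Hvcn1.

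The genes whose profile over the 6 samples was nearest to that of a member that rose were found among 8899 genes with a mean of at least 10 CPM. The measure was the root mean square difference of centred log2 CPM, and it is a description of 6 samples. For Cybb they were Itgb7, an integrin chain of blood leukocytes (0.096), Cd44, an adhesion receptor (0.12), and Xdh, a xanthine oxidoreductase (0.13). Itgb7 had 19.2, 18.1 and 24.2 CPM in 4LPS samples, against 5.97, 6.28 and 11.1 CPM in NS samples. It was picked for its likeness to Cybb, so a shared order of samples follows from the choice. For Cyba they were Slc11a1 (0.021), Clta, a clathrin light chain (0.033), and Zfp622 (0.036). For Rac2 they were Nop53 (0.038), H2aj (0.041) and Myo1f (0.044), and for Hvcn1 they were Myo9b (0.016), Il4ra, the interleukin-4 receptor chain (0.022), and Colgalt1 (0.031). The other members were not among the nearest genes of any member.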

How the data were processed

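CD11b+ cells of 3 4LPS and 3 NS samples were analysed by mRNA sequencing. The authors filtered reads with SOAPnuke, used HISAT2 2.0.4 with Bowtie2 2.2.5 for mapping, and RSEM 1.2.8 to quantify genes. Their methods name mm39, and the submitters' notes also mm10 and DESeq2 1.16.1. Which gene annotation was counted is not given in the sources used. Values deposited were expected counts (RSEM estimates, not normalized), FPKM, TPM and a normalized signal (counts divided by a size factor). TPM, the signal and group means were not used. The expected counts (2.77% not whole) were rounded and tested in R 4.3.3 with edgeR 4.0.16 (TMM, filterByExpr, quasi-likelihood F-test, Benjamini-Hochberg over 13151 genes). The script was tested on simulated data. Samples of a group differed by a mean chi-square per gene of at least 5.68, so none was a repeat of another. Nothing says whether same-numbered samples share a day. Their deviations correlated by 0.51, -0.25 and 0.13, which with 3 samples per group cannot decide it. The main fit had no block for the numbers.

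The members and lists were chosen with earlier results of these data known. Named genes were the members, up to 4 genes per list with the smallest p below the threshold, fixed genes such as Rac1 and Irf1, and the 3 nearest profiles of each member that rose. Certain genes that this rule covers are not reported here. Plcg2, Dock2, Noxo1, Sod3 and Me1 were named after their values were seen. Alternatives were other scalings, filters, DESeq2 1.42.0, limma 3.58.1 on counts or log2(FPKM + 1), a replicate block, a length correction, marker removal and leaving out each sample.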

Additional observations from a re-analysis of the deposited data

How the results depend on the processing

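Cybb, Cyba, Rac2 and Hvcn1 passed as higher in 20 of 20 alternatives, but over samples left out the adjusted p of Cybb from edgeR reached 0.0490. In the fit with the replicate block 4 members rose, and Cybb was 1.35, Cyba 0.46, Rac2 0.48, Hvcn1 0.45, Ncf1 0.18 and Ncf4 0.20. Whether same-numbered samples share a day is not known. With this block all genes higher and lower numbered 1275 and 1081. Ncf1 passed with DESeq2 (0.19) among 20 alternatives and Ncf4 without 4LPS replicate 2, its range over samples left out being 0.14 to 0.30. With the neutrophil marker covariate, chosen after seeing the data, Cyba (0.47) and Rac2 (0.44) did not pass and 2 members rose.

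All genes higher numbered 1308, and 823, 813 and 818 with limma on log2 FPKM (pseudocount 1, 0.1, and 1 without a filter), 781 to 1629 over samples left out, and 574 and 820 with the neutrophil and choroid plexus covariates. All genes lower numbered 845, then 1711 with no composition factor, 1486, 1454 and 1335 with the same limma fits, 363 to 1215 over samples left out, and 273 and 394 with those covariates. Of all calls 60.8% were higher, against 34.6% with no composition factor, which moved the median of all genes to -0.11, 35.6% to 38.0% with limma on FPKM, and 72.0% without 4LPS replicate 2.

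Signs changed in genes that did not pass. Sod1 was 0.083 and 0.023 with the neutrophil and choroid plexus covariates and -0.092 to 0.038 over samples left out. Cat was -0.016 with upper-quartile factors, -0.084 with no composition factor, -0.077, -0.079 and -0.077 with the limma fits on FPKM, and -0.032 to 0.044 over samples left out. Irf1 was -0.022 with no composition factor, -0.014 with each limma fit on FPKM and -0.042 with the neutrophil covariate. The cause was not tested. With 3 samples per group, p-values measure the spread between these pools only.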
